A study of Mus musculus with 8 samples.

Results

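The DNA replication genes described here are 37 genes that a dividing cell uses to license its origins, unwind and copy its DNA, make deoxynucleotides and repack the new strands into chromatin. They were chosen by name as a list of S-phase and DNA synthesis genes, and all 37 were found by symbol among the 38026 genes of the deposited table. All 37 also passed the filter on low values, at least 1 TPM in at least 3 libraries. TPM is a level per transcript length as a share of all RNA listed in a library.

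The cells were bulk CD11b bead captures from mouse, where CD11b is an integrin chain found on myeloid cells such as microglia, macrophages and neutrophils. In 5 libraries they were tumor-associated microglia and macrophages (TAMs) from medulloblastoma, which grows in the cerebellum, of C57BL/6 mice aged 68, 90, 61, 66 and 62 days in replicates 1 to 5. In the other 3 libraries they were microglia from the normal cerebral cortex of C57BL/6 mice aged 60 days. Both groups went through papain digestion, myelin depletion, bead capture and Trizol extraction, per the labels' protocols. The genotype or driver of the tumors is not in the labels, and tumor and normal tissue came from different brain regions, so region and tumor cannot be told apart. Whether the libraries of a group came from separate mice is stated no further than the ages, so p-values measure the spread between these libraries.

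Replication starts at origins where ORC, Cdc6 and Cdt1 load a ring of the Mcm2 to Mcm7 proteins, which becomes the replicative helicase once Cdc45 and the GINS complex join it. DNA polymerases alpha, delta and epsilon then copy the strands, with delta and epsilon held by the PCNA clamp that the RFC loader places on DNA. Transcription of many of these genes is driven at the passage from G1 to S phase by the E2F family, which is why their RNA is widely used as a mark of cycling cells, and microglia of the healthy adult brain divide rarely.

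Values are given on 2 scales, because the median log2 fold change over the 15262 genes tested was -0.65 on log2(TPM + 1), and most genes thus had a lower listed level in TAMs. On the rescaled scale each library is divided by the median, over genes, of its ratio to their geometric mean, a factor of 0.749 to 1.05 in TAMs and of 1.17 to 1.55 in microglia, and the median was -0.04. A gene was called higher or lower at a Benjamini-Hochberg adjusted p below 0.05 over all genes tested in limma. In these bulk samples, fewer cells of a type and less RNA per cell cannot be told apart. TPM keeps no read depth, so no counting interval is given, and fold changes on log2(TPM + 1) understate the change of genes near or below 1 TPM.

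Of the 37 genes, 24 were called higher and 0 lower in TAMs on TPM, where 8.22% of all genes tested were higher and 56.4% lower. The median log2 fold change of the 37 was 0.74 on TPM against 1.34 on the rescaled scale. On rescaled TPM 34 were called higher and 0 lower, where 24.6% of all genes were higher and 25.1% lower. At an unadjusted p below 0.05 in limma 1 gene, Pold1, was lower on TPM and 0 on rescaled TPM, and the authors' deposited table, described at the end, had 0 lower. Every TAM library lay above every microglia library for 24 of the 37 on TPM, where this held for 7.97% of all genes, and for 34 on rescaled TPM, where it held for 24.1%. By role, the helicase and its loading factors were called in 11 of 14 on TPM, the polymerases and primase in 1 of 4, the clamp and its loader in 2 of 5, and deoxynucleotide supply in 4 of 5. The calls on TPM were less steady than those on rescaled TPM: 15 of the 37 were higher on TPM without microglia replicate 3, against 30 on rescaled TPM.

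**Figure D1:**
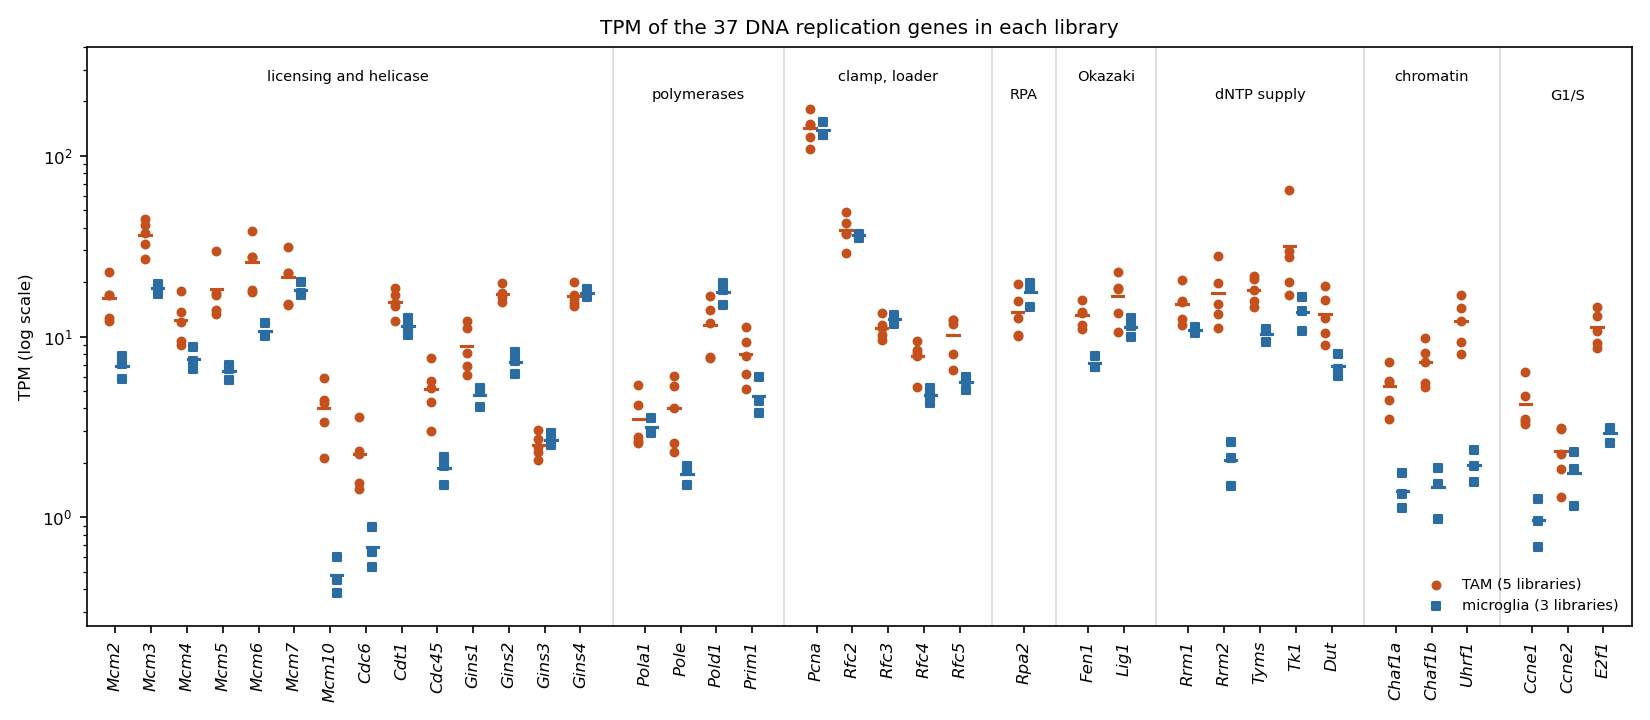
TPM of each of the 37 DNA replication genes (x axis, grouped by role) in each library on a log scale (y axis), with TAM libraries as circles, microglia libraries as squares and short lines at the group means. The gap between groups is wide for Rrm2, Uhrf1, Mcm10 and E2f1, while for Pcna, Gins3, Gins4 and Rfc3 the groups overlap.

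All 6 genes of the Mcm2 to Mcm7 ring were more abundant on average in TAMs, and 5 of them were called higher on TPM. Mcm5 was at 14, 29.6, 17.5, 13.3 and 16.9 TPM in TAM replicates 1 to 5, against 6.64, 6.93 and 5.74 TPM in microglia replicates 1 to 3. TAM replicate 2 stood above the other TAM libraries, and all 5 lay above the 3 microglia libraries. For Mcm5 the log2 fold change was 1.32 (SE 0.25, limma, adjusted p = 0.00217) on TPM, and 1.95 (SE 0.26, adjusted p = 0.000692) on the rescaled scale. Mcm6 was at 18, 38.3, 27.5, 17.6 and 27.4 TPM in TAM replicates 1 to 5, against 10.2, 11.8 and 10 TPM in microglia replicates 1 to 3. Again TAM replicate 2 was the highest and the groups did not overlap. On log2 scales Mcm6 changed by 1.14 (SE 0.25, limma, adjusted p = 0.00446) on TPM, and 1.80 (SE 0.24, adjusted p = 0.000671) on the rescaled scale. Mcm2 rose by 1.11 and Mcm3, the most abundant of the ring per transcript length, rose by 0.93 on the log2 TPM scale. Mcm4 rose by 0.62 (limma, adjusted p = 0.04), which was not kept when TAM replicate 2, 3 or 5 was left out or any 1 microglia library (adjusted p = 0.0571 to 0.112).

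Mcm7 was the ring gene that was not called on TPM. Mcm7 was at 15, 31.3, 22.4, 15.2 and 22.4 TPM in TAM replicates 1 to 5, against 17, 20 and 17.4 TPM in microglia replicates 1 to 3. TAM replicates 1 and 4 lay below all 3 microglia libraries and the other 3 above them. Its log2 fold change was 0.17 on TPM with a 95% interval of -0.37 to 0.71 and 0.85 on rescaled TPM (limma, adjusted p = 0.0145). Without microglia replicate 2 or 3 its call on rescaled TPM was lost (adjusted p = 0.0622 and 0.0705). The exons of Mcm7 overlap Ap4m1 on the opposite strand over 7.25% of their length, and whether the counting used strand is not given in the sources used here.

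Mcm10, Cdc6, Cdt1 and Cdc45, which load the ring or act with it, were called higher on TPM. Mcm10, which helps start the assembled helicase, was among the genes with the widest gap. Mcm10 was at 3.37, 5.9, 4.29, 2.13 and 4.44 TPM in TAM replicates 1 to 5, against 0.448, 0.383 and 0.606 TPM in microglia replicates 1 to 3. The lowest TAM library was still above every microglia library. Its mean was 8.41-fold that of microglia on TPM. The log2 fold change of Mcm10 was 1.72 (SE 0.26, limma, adjusted p = 0.000822) on TPM, and 2.06 (SE 0.24, adjusted p = 0.000417) on the rescaled scale. Cdc6, a loader of the ring, was at 2.23 ± 0.865 TPM (SD) in TAMs and 0.684 ± 0.18 TPM in microglia and rose by 0.91 on the log2 scale (limma, adjusted p = 0.0101, and 0.0524 without microglia replicate 3). Cdt1, the other loading factor, was at 15.6 ± 2.42 TPM (SD) in TAMs and 11.4 ± 1.24 TPM in microglia with a log2 fold change of 0.41 (limma, adjusted p = 0.0437), its groups overlapped on TPM through TAM replicate 1, and this call was lost without any 1 library except TAM replicate 1 (adjusted p = 0.0626 to 0.146). Cdc45, which joins the ring to form the active helicase, was at 5.16 ± 1.69 TPM (SD) in TAMs and 1.87 ± 0.333 TPM in microglia and rose by 1.07.

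The 4 GINS subunits, which act together as 1 complex, split into pairs on TPM. Gins2 was at 16.5, 19.9, 17.3, 15.5 and 17.3 TPM in TAM replicates 1 to 5, against 8.18, 7.34 and 6.24 TPM in microglia replicates 1 to 3. The TAM libraries lay close together and above all microglia libraries. For Gins2 the log2 fold change was 1.15 (SE 0.14, limma, adjusted p = 0.000291) on TPM, and 1.79 (SE 0.17, adjusted p = 0.00017) on the rescaled scale. Gins1 was at 8.9 ± 2.67 TPM (SD) in TAMs and 4.77 ± 0.608 TPM in microglia and rose by 0.74 (limma, adjusted p = 0.0227), with adjusted p = 0.0526 when TAM replicate 3 was left out and 0.0875 when microglia replicate 3 was. Gins4 was at 16.1, 17.1, 20.2, 14.8 and 15.3 TPM in TAM replicates 1 to 5, against 17.6, 18.4 and 16.5 TPM in microglia replicates 1 to 3. For Gins4 the groups overlapped, with TAM replicate 2 inside the range of microglia, TAM replicates 1, 4 and 5 below it and TAM replicate 3 above it. The log2 fold change was -0.07 on TPM with a 95% interval of -0.36 to 0.22, and that of Gins3 was -0.08 with an interval of -0.45 to 0.29. On rescaled TPM both were called higher, at 0.61 for Gins4 and 0.43 for Gins3, calls lost without microglia replicate 2 or 3 (limma, adjusted p = 0.0916 to 0.104). Gins2 shares 67.3% of its exon bases with Gse1 on the opposite strand, at 12.3 to 35.5 TPM in TAMs and 21.3 to 32.5 TPM in microglia, so its level is uncertain where reads were counted without strand.

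Promoter sequence was available in RefSeq (GRCm38.p6) for 30 of the 37 genes as 35 windows of 300 bases, 250 before and 50 after the start. Ccne2, Gins1, Gins2, Gins4, Mcm4, Pole and Rfc2 had no entry. The E2F letters searched on both strands were TTTCCCGC, TTTGGCGC, TTTCGCGC and TTTGCCGC, and matches on opposite strands can overlap. They were found in 12 of the 35 windows (34.3%), in 20.3% of 123 windows of the other replication pathway genes, in 9.52% of 21 windows of mitosis genes and in 2.26% of all 32851 promoter windows. The windows of the 37 genes had a median GC content of 60%, against 52.7% in all promoters, and no test for base composition was made. CCAAT was found in 54.3% of the windows of the 37 genes and in 37.4% of all promoters. The letters TTTGAA, known from promoters of mitosis genes, were in 11.4% of the windows of the 37 genes, in 76.2% of those of mitosis genes and in 17.9% of all. Of the genes with an entry, an E2F match was present in 6 of 20 that were called higher on TPM and in 6 of 10 that were not. The 3 stretches below, 60 bases long, lie before the start of a pair of ring genes that rose, Mcm5 (chr8:75109330-75109389, plus strand) and Mcm6 (chr1:128359782-128359841, minus strand), and of Pola1 (chrX:93632260-93632319, minus strand), which was called on neither scale. Capitals mark the E2F letters, with an overlapping pair on opposite strands in Mcm5 and in Mcm6 and 1 match in Pola1, whose first base is 153, 110 and 138 bases before the start.
Mcm5: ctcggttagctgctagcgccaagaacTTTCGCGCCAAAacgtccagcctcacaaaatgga
Mcm6: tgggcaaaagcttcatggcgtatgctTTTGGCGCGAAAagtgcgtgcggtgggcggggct
Pola1: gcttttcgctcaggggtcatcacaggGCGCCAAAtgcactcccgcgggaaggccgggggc

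Such a match is a description of the letters and not of binding, and Pola1 carried one without a call on either scale.

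Among the polymerases, 1 of 4 genes was called on TPM. Pole, the catalytic subunit of polymerase epsilon that copies the leading strand, was higher. Pole was at 2.59, 5.3, 4, 2.29 and 6.03 TPM in TAM replicates 1 to 5, against 1.52, 1.92 and 1.8 TPM in microglia replicates 1 to 3. TAM replicates 2 and 5 were the highest, and the groups did not overlap. On log2 scales Pole changed by 0.82 (SE 0.28, limma, adjusted p = 0.0314) on TPM, and 1.30 (SE 0.23, adjusted p = 0.0025) on the rescaled scale. The call on TPM was lost without TAM replicate 2 or 3 or any 1 of the microglia libraries (adjusted p = 0.0586 to 0.0818), but kept on rescaled TPM in each of these. Pold1 was at 7.62, 16.7, 11.9, 7.68 and 14 TPM in TAM replicates 1 to 5, against 15, 18.2 and 19.7 TPM in microglia replicates 1 to 3. Pold1, the catalytic subunit of polymerase delta, was thus below all 3 microglia libraries in 4 of 5 TAM libraries. Its log2 fold change was -0.62 on TPM with a 95% interval of -1.22 to -0.01 (limma, adjusted p = 0.0678) and 0.05 on rescaled TPM with an interval of -0.48 to 0.58. Without TAM replicate 2 it was called lower on TPM (adjusted p = 0.0251). Pola1, the catalytic subunit of polymerase alpha, was at 3.51 ± 1.22 TPM (SD) in TAMs and 3.17 ± 0.345 TPM in microglia, with a log2 fold change of 0.08 on TPM with a 95% interval of -0.46 to 0.61 and 0.62 on rescaled TPM (limma, adjusted p = 0.0639, and 0.0277 without TAM replicate 5). Prim1, the primase subunit that makes the RNA primers, had a log2 fold change of 0.63 on TPM (limma, adjusted p = 0.0565, and 0.0297 without TAM replicate 4) and 1.23 on rescaled TPM (adjusted p = 0.00215), and was called on rescaled TPM alone.

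Pcna, the sliding clamp, had the highest level of the 37 genes per transcript length and did not pass on TPM. Pcna was at 109, 181, 149, 127 and 148 TPM in TAM replicates 1 to 5, against 130.1, 153 and 131 TPM in microglia replicates 1 to 3. The 2 groups overlapped. It had a log2 fold change of 0.03 on TPM with a 95% interval of -0.33 to 0.40 and 0.75 on rescaled TPM (limma, adjusted p = 0.00631). The table also lists Pcna-ps2 on chromosome 19, a copy with 99.2% identity to the Pcna transcript, whose reads cannot be told apart with certainty. It was at 14.6, 0.155, 0.0711, 0.106 and 0.215 TPM in TAM replicates 1 to 5, against 36, 30.3 and 30.8 TPM in microglia replicates 1 to 3. TAM replicate 1 was the 1 TAM library above 1 TPM, while all 3 microglia libraries were above 30 TPM. Whether a difference in sequencing or quantification between the libraries goes with this split was not tested, and the level of Pcna itself is uncertain to that extent. With the copies summed, the clamp averaged 146 ± 23 TPM in TAMs and 171 ± 11.5 TPM in microglia (SD, n = 5 and 3), and the log2 fold change became -0.23 (SE 0.13, limma, adjusted p = 0.153) on TPM and 0.48 (SE 0.16, adjusted p = 0.0338) on rescaled TPM.

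The 4 small subunits of the RFC clamp loader did not move alike on TPM. Rfc4 rose by 0.60 (limma, adjusted p = 0.0234) and Rfc5 by 0.73 (adjusted p = 0.021). Rfc5 was at 6.56, 12.4, 12.4, 8.01 and 11.8 TPM in TAM replicates 1 to 5, against 5.07, 6.01 and 5.73 TPM in microglia replicates 1 to 3. TAM replicate 1 was the lowest of its group and still above the microglia libraries. Both calls were lost on TPM without microglia replicate 1 or 3 (adjusted p = 0.0587 to 0.0677), as was that of Rfc4 without TAM replicate 3 (0.0539), and on rescaled TPM they were kept there. Rfc2 was at 37.1, 42.4, 37.6, 29.1 and 49.2 TPM in TAM replicates 1 to 5, against 35.2, 36.5 and 37.1 TPM in microglia replicates 1 to 3. Rfc2, the most abundant of the 4, overlapped between groups, with a log2 fold change of 0.08 and a 95% interval of -0.27 to 0.44. Rfc3 had a log2 fold change of -0.15 with an interval of -0.47 to 0.17. On rescaled TPM all 4 were called higher, Rfc2 at 0.78 and Rfc3 at 0.51, with the call of Rfc3 lost without microglia replicate 2 or 3 (adjusted p = 0.0802 and 0.0795). The exons of Rfc2, Rfc4 and Rfc5 overlap Lat2, Eif4a2 and Wsb2 on the opposite strand over 15.1%, 12.7% and 10.7% of their length.

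Rpa2, a subunit of the protein that coats single-stranded DNA, was called on neither scale. Rpa2 was at 10.1, 19.5, 12.6, 10.3 and 15.7 TPM in TAM replicates 1 to 5, against 14.5, 18.6 and 19.9 TPM in microglia replicates 1 to 3. TAM replicates 2 and 5 lay among the microglia libraries and TAM replicates 1, 3 and 4 below them. Its log2 fold change was -0.38 on TPM with a 95% interval of -0.90 to 0.14 and 0.29 on rescaled TPM with an interval of -0.15 to 0.74. Without TAM replicate 2 it was called lower on TPM (limma, adjusted p = 0.0482).

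Of the genes that finish the lagging strand, Fen1, the nuclease that trims Okazaki fragments, rose. Fen1 was at 11, 16, 13.4, 11.6 and 13.6 TPM in TAM replicates 1 to 5, against 6.75, 6.79 and 7.82 TPM in microglia replicates 1 to 3. No TAM library fell within the range of microglia. The log2 fold change of Fen1 was 0.79 (SE 0.15, limma, adjusted p = 0.00248) on TPM, and 1.43 (SE 0.15, adjusted p = 0.000265) on the rescaled scale. Its exons overlap Gm10143 on the opposite strand over 78.8% of their length, at 0.218 to 0.739 TPM in TAMs and 0.651 to 0.928 TPM in microglia. They overlap Tmem258 there over 5.37%, at 71.9 to 91.4 TPM in TAMs and 66 to 68.3 TPM in microglia. The level of Fen1 is uncertain where reads were counted without strand. Lig1, the ligase that joins the fragments, was at 16.8 ± 4.7 TPM (SD) in TAMs and 11.3 ± 1.39 TPM in microglia, with a log2 fold change of 0.49 on TPM (limma, adjusted p = 0.0921, and 0.0245 without TAM replicate 4) and 1.15 on rescaled TPM (adjusted p = 0.00285).

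Deoxynucleotide supply held the largest fold change of the 37 genes on both log2 scales. Rrm2 encodes the small subunit of ribonucleotide reductase, the subunit whose level follows S phase in cycling cells. Rrm2 was at 13.3, 27.8, 19.9, 11.1 and 15.2 TPM in TAM replicates 1 to 5, against 1.5, 2.6 and 2.14 TPM in microglia replicates 1 to 3. Even the lowest TAM value was several times the highest microglia value. For Rrm2 the log2 fold change was 2.53 (SE 0.29, limma, adjusted p = 0.000258) on TPM, and 3.07 (SE 0.28, adjusted p = 0.000157) on the rescaled scale. Rrm1, which encodes the large subunit, was at 15.1 ± 3.46 TPM (SD) in TAMs and 10.8 ± 0.371 TPM in microglia. The log2 fold change was 0.42 on TPM (limma, adjusted p = 0.0687, and 0.0405 without TAM replicate 4) and 1.08 on rescaled TPM (adjusted p = 0.0021), and the groups did not overlap on TPM although it was not called there.

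Tyms, which makes thymidylate, was at 18.1 ± 3.03 TPM (SD) in TAMs and 10.4 ± 0.902 TPM in microglia and rose by 0.74 (limma, adjusted p = 0.00389). Dut, which removes dUTP, was at 13.4 ± 4.06 TPM (SD) in TAMs and 6.91 ± 1.02 TPM in microglia and rose by 0.83 (limma, adjusted p = 0.0153, and 0.054 without microglia replicate 3). Tk1, the cytosolic thymidine kinase, had the widest spread of the 5 supply genes among TAMs. Tk1 was at 20, 64.3, 29.6, 17.1 and 27.7 TPM in TAM replicates 1 to 5, against 10.8, 13.9 and 16.6 TPM in microglia replicates 1 to 3. TAM replicate 2 stood far above the other 4 TAM libraries. On log2 scales Tk1 changed by 1.01 (SE 0.38, limma, adjusted p = 0.0446) on TPM, and 1.69 (SE 0.38, adjusted p = 0.00779) on the rescaled scale. Its call on TPM was lost without TAM replicate 3 or 5 or any 1 of the microglia libraries (adjusted p = 0.0668 to 0.129), but kept without TAM replicate 2, and on rescaled TPM it was kept without any 1 library. With age as a covariate the log2 fold change of Tk1 on TPM was 0.57 and it was not called (limma, adjusted p = 0.152).

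The 3 genes that copy chromatin marks and nucleosomes behind the fork all rose on both scales. Uhrf1 reads hemimethylated DNA and brings the maintenance methyltransferase to it. Uhrf1 was at 9.36, 16.9, 12.2, 7.99 and 14.3 TPM in TAM replicates 1 to 5, against 1.93, 2.35 and 1.57 TPM in microglia replicates 1 to 3. The groups lay far apart, with TAM replicate 2 the highest. The log2 fold change of Uhrf1 was 2.12 (SE 0.25, limma, adjusted p = 0.000285) on TPM, and 2.65 (SE 0.21, adjusted p = 9e-05) on the rescaled scale. Chaf1a and Chaf1b encode subunits of CAF-1, which places histones H3 and H4 on new DNA. Chaf1b was at 5.53, 7.26, 8.11, 5.29 and 9.79 TPM in TAM replicates 1 to 5, against 0.982, 1.52 and 1.88 TPM in microglia replicates 1 to 3. TAM replicate 5 was the highest for Chaf1b. For Chaf1b the log2 fold change was 1.72 (SE 0.23, limma, adjusted p = 0.000524) on TPM, and 2.21 (SE 0.16, adjusted p = 6.27e-05) on the rescaled scale. Chaf1a was at 5.3 ± 1.4 TPM (SD) in TAMs and 1.4 ± 0.318 TPM in microglia and rose by 1.37 (limma, adjusted p = 0.00125). Its exons overlap Ubxn6 on the opposite strand over 52.5% of their length, and Ubxn6 had 24.9 to 34.4 TPM in TAM libraries against 38.8 to 53.8 TPM in microglia libraries.

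Of the G1/S control genes, E2f1, an activating E2F factor, and Ccne1, a cyclin that activates Cdk2, rose. E2f1 was at 9.19, 14.5, 13.1, 8.68 and 10.7 TPM in TAM replicates 1 to 5, against 3.09, 3.13 and 2.58 TPM in microglia replicates 1 to 3. The groups were far apart. On log2 scales E2f1 changed by 1.62 (SE 0.20, limma, adjusted p = 0.000322) on TPM, and 2.18 (SE 0.20, adjusted p = 0.000157) on the rescaled scale. Ccne1 was at 3.4, 6.33, 4.7, 3.28 and 3.49 TPM in TAM replicates 1 to 5, against 0.685, 0.957 and 1.26 TPM in microglia replicates 1 to 3. TAM replicate 2 was the highest. The log2 fold change of Ccne1 was 1.39 (SE 0.23, limma, adjusted p = 0.0013) on TPM, and 1.82 (SE 0.23, adjusted p = 0.00059) on the rescaled scale. Ccne2, the other E-type cyclin, was at 2.32 ± 0.796 TPM (SD) in TAMs and 1.77 ± 0.581 TPM in microglia, and the groups overlapped on TPM. Its log2 fold change was 0.25 on TPM with a 95% interval of -0.33 to 0.83 and 0.71 on rescaled TPM (limma, adjusted p = 0.0207), a call lost without microglia replicate 1 or 2 (adjusted p = 0.0886 and 0.0888). Its exons overlap Ints8 on the opposite strand over 17.4% of their length.

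**Figure D2:**
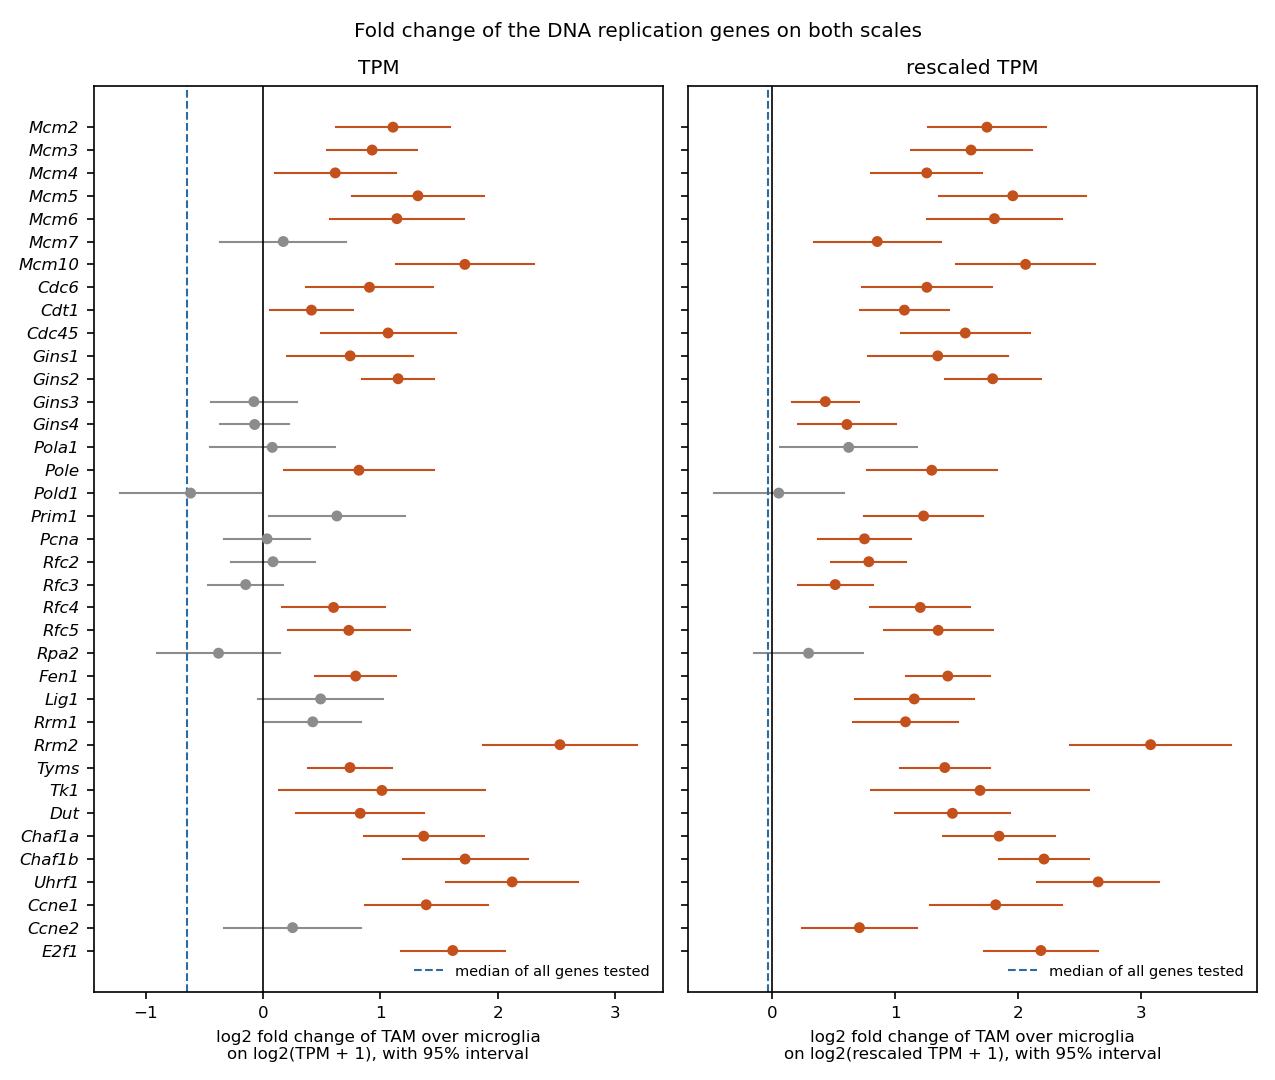
Log2 fold change of TAM over microglia with its 95% interval (x axis) for each gene (y axis) on TPM (left) and rescaled TPM (right), with called genes in orange and others in grey and a dashed line at the median of all genes tested. Rrm2 is the farthest right on both scales at 2.53 and 3.07, and Pold1 the farthest left at -0.62 and 0.05.

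Ratios of 2 subunits within a library cancel the scaling of that library, and were compared after the levels had been seen. Of 33 pairs within 7 complexes or gene pairs, 22 had ratios that did not overlap between TAMs and microglia. How often the ratio of any other 2 expressed genes separates these groups was not computed. The count thus describes these pairs and does not set them apart from other genes. With 5 and 3 libraries the exact two-sided permutation test cannot go below p = 0.0357, which these 22 pairs reached, and adjusted over the 33 pairs their p was 0.0536, so none passed 0.05. The pairs that did not overlap were 9 of 15 in the Mcm2 to Mcm7 ring, 4 of 6 in GINS, 4 of 6 in RFC, all 3 of the polymerase pairs, the ribonucleotide reductase pair and the cyclin E pair, and 0 of 1 in CAF-1.

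Mcm6 over Mcm7 was 1.21, 1.22, 1.23, 1.16 and 1.22 in TAM replicates 1 to 5, against 0.602, 0.592 and 0.575 in microglia replicates 1 to 3. The ratio thus varied little within each group, and Mcm6 was the more abundant of the pair in TAMs and Mcm7 in microglia. Gins2 over Gins4 was 1.02, 1.17, 0.856, 1.05 and 1.13 in TAM replicates 1 to 5, against 0.465, 0.398 and 0.379 in microglia. Pole over Pold1 was 0.298 to 0.43 in TAMs and 0.0911 to 0.105 in microglia, so the unequal change of these 2 catalytic genes stood whatever the library scaling. Rrm2 over Rrm1 was 1.06, 1.36, 1.29, 0.962 and 0.973 in TAM replicates 1 to 5, against 0.14, 0.231 and 0.204 in microglia. The 2 reductase subunits were thus near parity in TAMs, while the large subunit was several times the more abundant in microglia. Ccne1 over Ccne2 was 1.13 to 2.82 in TAMs and 0.517 to 0.597 in microglia. Other pairs overlapped between the groups. Mcm2 over Mcm6 was 0.594 to 0.705 in TAMs and 0.583 to 0.688 in microglia. Gins4 over Gins3 was 5.05 to 8.77 in TAMs, a wider spread than the 6.27 to 6.97 in microglia.

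**Figure D3:**
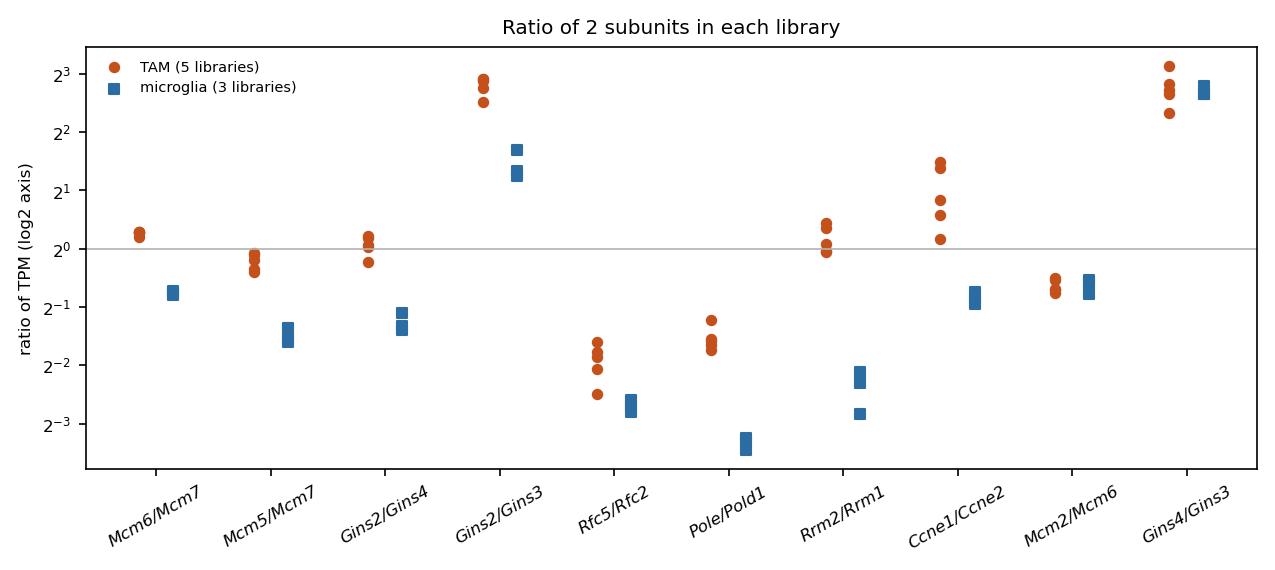
Ratio of the TPM of 2 genes (y axis, log2 axis) for 10 pairs (x axis), with TAM libraries as circles and microglia libraries as squares. In 8 pairs the groups do not overlap, while Mcm2 over Mcm6 and Gins4 over Gins3 overlap.

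The TAM libraries differed among themselves in the same direction for most of the 37 genes. TAM replicate 2 was the highest TAM library for 28 genes on TPM and 31 on rescaled TPM, and TAM replicate 4 was the lowest for 28 and 24. Without Pcna, the other 36 genes summed to 381, 648, 506, 361 and 505 TPM in TAM replicates 1 to 5, against 274, 307 and 294 TPM in microglia replicates 1 to 3. Every TAM library thus exceeded every microglia library in this sum, and the 3 microglia libraries lay close together. TAM replicate 2 came from the oldest mouse, at 90 days, and with 1 library at that age, age and library cannot be told apart. With age as a covariate 16 genes were higher on TPM and 32 on rescaled TPM. The 8 no longer called on TPM were Mcm4, Cdt1, Gins1, Pole, Rfc4, Rfc5, Tk1 and Dut (limma, adjusted p = 0.0586 to 0.152), and on rescaled TPM Gins3 and Gins4. Without TAM replicate 2, 21 genes were higher on TPM and 34 on rescaled TPM.

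Markers of other cells moved with the groups, and their part in these results was not tested beyond the values given here. Of 17 markers of the granule neuron lineage and of Hedgehog-driven medulloblastoma 12 were tested, with 4 higher and 2 lower in TAMs on TPM, and they summed to 8.16 to 102.9 TPM in TAMs and 17.6 to 74.2 TPM in microglia. The 4 higher markers were Atoh1, Barhl1, Neurod1 and Insm1, and 6 were not called. Atoh1, which defines granule neuron progenitors, reached 0.238 to 6.27 TPM in TAM libraries and was at 0 in all 3 microglia libraries. The 2 lower markers were Zic2, with means of 1.83 TPM in TAMs and 16.6 TPM in microglia, and Ptch1, with 1.13 and 6.05 TPM. The summed TPM of the 17 markers was highest in TAM replicate 5 and lowest in TAM replicate 2, the library with most replication RNA. Without TAM replicate 5, 21 of the 37 genes were higher on TPM and 35 on rescaled TPM.

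Of 10 monocyte and neutrophil markers 6 were tested and 2 were higher, S100a8 and S100a9, with sums of 61.2 to 456 TPM in TAMs and 34.8 to 42.3 TPM in microglia, and TAM replicate 2 held the highest sum. In that library S100a8 and S100a9 were at 147 and 245 TPM, while Ly6c2 was at 5.88 TPM there and highest in TAM replicate 1, at 77.9 TPM. Ccr2, also of this list, was highest in TAM replicate 2, at 48.3 TPM. It was at 2.62 to 17 TPM in the other TAM libraries and 5.53 to 6.25 TPM in microglia. Neither Ly6c2 nor Ccr2 was called on either scale. The neutrophil marker Ly6g was at 0.54 and 0.794 TPM in TAM replicates 2 and 4. It was at 0 in TAM replicates 1, 3 and 5 and in all microglia libraries. Among 12 microglia and macrophage markers 3 were higher and 5 lower in TAMs, all were detected in every library, and P2ry12 and Tmem119 were lowest in TAM replicate 2. Endothelial markers were lower on TPM in 9 of 9 (13.8 to 87.2 TPM in TAMs and 584 to 1886 TPM in microglia), astrocyte markers in 7 of 8 (12.5 to 68.9 TPM in TAMs and 101 to 634 TPM in microglia) and oligodendrocyte markers in 8 of 8 tested (48.5 to 60.2 TPM in TAMs and 141 to 673 TPM in microglia). On rescaled TPM 9 endothelial, 6 astrocyte and 4 oligodendrocyte markers were lower. Of all genes tested, 8.22% were higher and 56.4% lower on TPM, against 24.6% and 25.1% on rescaled TPM. Neuron markers had 1 higher and 2 lower of 4 tested, summing to 7.1 to 21.3 TPM in TAMs and 15.2 to 52.3 TPM in microglia, and lymphocyte markers 1 lower of 3 tested, at 2.76 to 6.4 TPM in TAMs and 2.49 to 8.79 TPM in microglia.

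**Figure D4:**
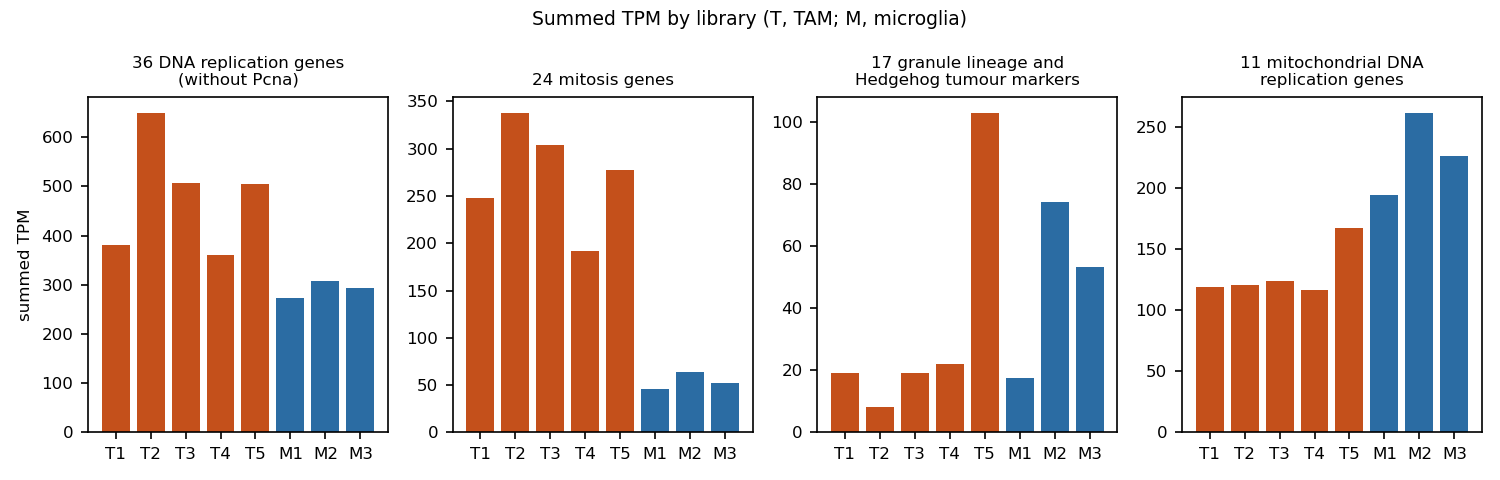
Summed TPM (y axis) in each library (x axis, T for TAM and M for microglia replicates) of 36 DNA replication genes, 24 mitosis genes, 17 granule lineage and tumor markers and 11 mitochondrial DNA replication genes, 1 bar per library. The replication and mitosis sums are higher in all 5 TAM libraries, the marker sum peaks at 102.9 TPM in T5, and the mitochondrial sum is lower in all TAM libraries. On rescaled TPM, not drawn, the mitochondrial sums overlap, at 147.5 to 159.5 in TAMs and 158.9 to 168 in microglia.

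Genes of the same pathway outside the 37 moved less uniformly. Of 118 tested in 7 lists, 22 were higher and 39 lower in TAMs on TPM, where 8.22% of all genes tested were higher and 56.4% lower. Their median log2 fold change was -0.18 on TPM, against -0.65 over all genes, and 63 were higher and 4 lower on rescaled TPM, with a median of 0.42, where 24.6% of all genes were higher and 25.1% lower. Without microglia replicate 2 or 3, 24 of them were lower on TPM. The 37 genes and these lists were chosen with earlier results of these data known, so their counts describe the lists. Each list below is to be read beside the shares of all genes tested given above. Where a list below has 0 calls in a direction, the count at an unadjusted p below 0.05 in limma was also 0, except for 1 lower E2F and pocket protein gene on rescaled TPM.

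Origin recognition and firing genes split, with 4 higher and 5 lower of 15 on TPM and 7 and 3 on rescaled TPM. Gmnn was at 9.93, 19.1, 16.4, 9.85 and 15 TPM in TAM replicates 1 to 5, against 3.91, 4.69 and 3.06 TPM in microglia replicates 1 to 3. Gmnn encodes geminin, the inhibitor of Cdt1 that prevents relicensing, and rose by 1.59 on the log2 TPM scale (limma, adjusted p = 0.000979). Wdhd1, which ties polymerase alpha to the fork, rose by 1.05, the helicase gene Recql4 by 0.76 and Dbf4, the activating subunit of the Cdc7 kinase, by 0.55. Orc4 was at 17.5, 20.6, 18.2, 23.8 and 26.9 TPM in TAM replicates 1 to 5, against 37.1, 59.4 and 51.4 TPM in microglia replicates 1 to 3. Orc4 and Orc3, subunits of the complex that marks origins throughout the cycle, were lower on both scales, at -1.16 and -1.01 on TPM and -0.46 and -0.31 on rescaled TPM. Donson, a fork factor, was lower at -0.93 on TPM and -0.27 on rescaled TPM.

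Other replisome subunits and fork factors had 5 higher and 7 lower of 26 on TPM, and 15 higher and 0 lower on rescaled TPM. Top2a was at 25.9, 39.5, 32.6, 19 and 25.9 TPM in TAM replicates 1 to 5, against 3.47, 6.06 and 4.03 TPM in microglia replicates 1 to 3. Top2a, the topoisomerase of cycling cells that untangles sister DNA, rose by 2.41 (limma, adjusted p = 0.000176). Dna2 was at 10.1, 8.3, 9.54, 8.64 and 15.2 TPM in TAM replicates 1 to 5, against 1.76, 2.11 and 1.87 TPM in microglia replicates 1 to 3. Dna2, a nuclease of the lagging strand, rose by 1.93, with TAM replicate 5 highest. Clspn, Chtf18 and Rnaseh2b rose by 0.76, 0.84 and 0.90. Top1, the topoisomerase also used in transcription, had a log2 fold change of -0.76 on TPM and -0.05 on rescaled TPM, and Chtf8 of -0.70 and 0.01, so the lower calls of both were found on TPM alone.

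Other nucleotide synthesis genes had 3 higher and 10 lower of 25 on TPM, and 14 higher and 0 lower on rescaled TPM. Dck, the deoxycytidine kinase of nucleoside salvage, was at 15.7 ± 2.04 TPM (SD) in TAMs and 6.96 ± 1.06 TPM in microglia and rose by 1.07. Nme1, a nucleoside diphosphate kinase, rose by 1.23 and Dctpp1, which removes unwanted dCTP, by 0.67. Ctps2, a CTP synthase, and Dguok, the mitochondrial deoxyguanosine kinase, were lower on TPM alone, at -0.90 and -0.83, against -0.19 and -0.13 without a call on rescaled TPM.

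Other chromatin copying genes had 3 higher and 4 lower of 12 on TPM, and 8 and 1 on rescaled TPM. The 2 histone chaperones of the Asf1 family went opposite ways on TPM. Asf1b was at 8.26, 19.2, 9.79, 7.81 and 11.7 TPM in TAM replicates 1 to 5, against 3, 4.94 and 4.39 TPM in microglia replicates 1 to 3. Asf1b, the form of cycling cells, rose by 1.22, while Asf1a had a log2 fold change of -0.76 on TPM and -0.14, not called, on rescaled TPM. Hells, a chromatin remodeler needed for DNA methylation, rose by 1.00 and the histone acetyltransferase gene Hat1 by 0.36. Cdca7, whose product recruits the Hells protein, was lower on both scales, at -1.18 on TPM and -0.54 on rescaled TPM (limma, adjusted p = 0.0494). The histone-binding gene Rbbp4 was called lower on TPM at -0.33 and higher on rescaled TPM at 0.37.

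E2F and pocket protein genes had 2 higher and 7 lower of 15 on TPM, and 8 higher and 0 lower on rescaled TPM. E2f8 was at 3.89 ± 1.26 TPM (SD) in TAMs and 0.884 ± 0.172 TPM in microglia and rose by 1.34, while E2f7, its close relative and like it a repressor, was at 2.28 ± 0.688 TPM (SD) in TAMs and 5.47 ± 1.77 TPM in microglia, with -0.97 on TPM and -0.41, not called, on rescaled TPM. Mybl2, a transcription factor of the cell cycle, rose by 0.80. Rb1, the founding pocket protein, had -0.71 on TPM and -0.02 on rescaled TPM, and E2f4, an E2F of resting cells, -0.39 and 0.31, with a call in each direction. Of 10 fork checkpoint genes 1 was higher on TPM, the kinase gene Chek1 at 0.84, and 5 were lower, among them Rad17, Atrip and Rad9a at -0.79, -0.76 and -0.54. On rescaled TPM 2 were higher and 0 lower. The shares over all genes tested were 8.22% higher and 56.4% lower on TPM, and 24.6% and 25.1% on rescaled TPM. The lower counts of the E2F and checkpoint lists on TPM are thus not read as a change of either list. Of 15 homologous recombination genes 4 were higher and 1 lower on TPM, and 9 and 0 on rescaled TPM. Fanca of the Fanconi pathway rose by 0.86, and Rad54b was the lower gene, at -1.30.

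Lists outside the nuclear replication pathway were counted on their own. Mitosis genes were higher in 23 of 24 on both scales, with a median log2 fold change of 1.89 on TPM and 2.38 on rescaled TPM. Cdk1 was at 39, 51.7, 55.4, 41.6 and 44.7 TPM in TAM replicates 1 to 5, against 9.04, 13.5 and 11 TPM in microglia replicates 1 to 3. Cdk1 encodes the mitotic kinase. Ube2c, Ccnb2 and Plk1 also rose, by 2.36, 2.01 and 1.98 on the log2 TPM scale. Mitosis genes summed to 248, 337, 304, 192 and 277 TPM in TAM replicates 1 to 5, against 46, 64.4 and 52.1 TPM in microglia, with the lowest TAM library again replicate 4.

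Mitochondrial DNA replication genes, which all cells use outside S phase, had 0 higher and 8 lower of 11 on TPM, and 1 higher and 3 lower on rescaled TPM, where 56.4% and 25.1% of all genes were lower. Polg was at 27.4, 26.5, 25.2, 24.3 and 30.8 TPM in TAM replicates 1 to 5, against 46.6, 70.4 and 65.1 TPM in microglia replicates 1 to 3. Polg, the mitochondrial DNA polymerase, was lower on both scales, at -1.13 and -0.43, as were Polrmt and Primpol. Mgme1 had -1.06 on TPM and -0.40, not called, on rescaled TPM. Translesion and repair polymerases had 0 higher and 6 lower of 10 on TPM, and 1 and 2 on rescaled TPM, and the shares that were lower are near those of all genes, 56.4% and 25.1%. Polk and Polm were lower on both scales, at -1.25 and -0.88 on rescaled TPM, while Polb and Rev1 were lower on TPM alone.

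Genes of quiescence and Cdk inhibition had 3 higher and 8 lower of 12 on TPM, and 3 and 4 on rescaled TPM. Of all genes tested, 8.22% were higher and 56.4% lower on TPM, against 24.6% and 25.1% on rescaled TPM. The counts are thus not read as a change of the list as a whole. Btg2 was at 125, 159, 116, 139 and 153 TPM in TAM replicates 1 to 5, against 656, 586 and 611 TPM in microglia replicates 1 to 3. Btg2, an antiproliferative gene that also responds early to stimulation, was lower by far in every TAM library (log2 fold change -2.16, SE 0.12, limma, adjusted p = 1.69e-05). Cdkn1c was at 0.631, 1.47, 0.691, 1.46 and 1.43 TPM in TAM replicates 1 to 5, against 15.7, 27.9 and 24.5 TPM in microglia replicates 1 to 3. Cdkn1c, which encodes the Cdk inhibitor p57, was lower at -3.46 on TPM and -2.89 on rescaled TPM, and Btg1 at -1.10 on TPM alone. The 3 that rose were genes of the Ink4 family, whose Ink4 products block Cdk4 and Cdk6. The level of Cdkn2a is given per gene, so the transcript behind its rise is not known. Cdkn2a was at 19.9, 6.36, 20.5, 17.4 and 14.6 TPM in TAM replicates 1 to 5, against 1.08, 0.363 and 0.594 TPM in microglia replicates 1 to 3. Cdkn2a rose by 3.25, Cdkn2c by 1.30 and Cdkn2d by 0.58 on TPM, and TAM replicate 2 was the lowest TAM library for Cdkn2a and the highest for Cdkn2c and Cdkn2d.

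**Figure D5:**
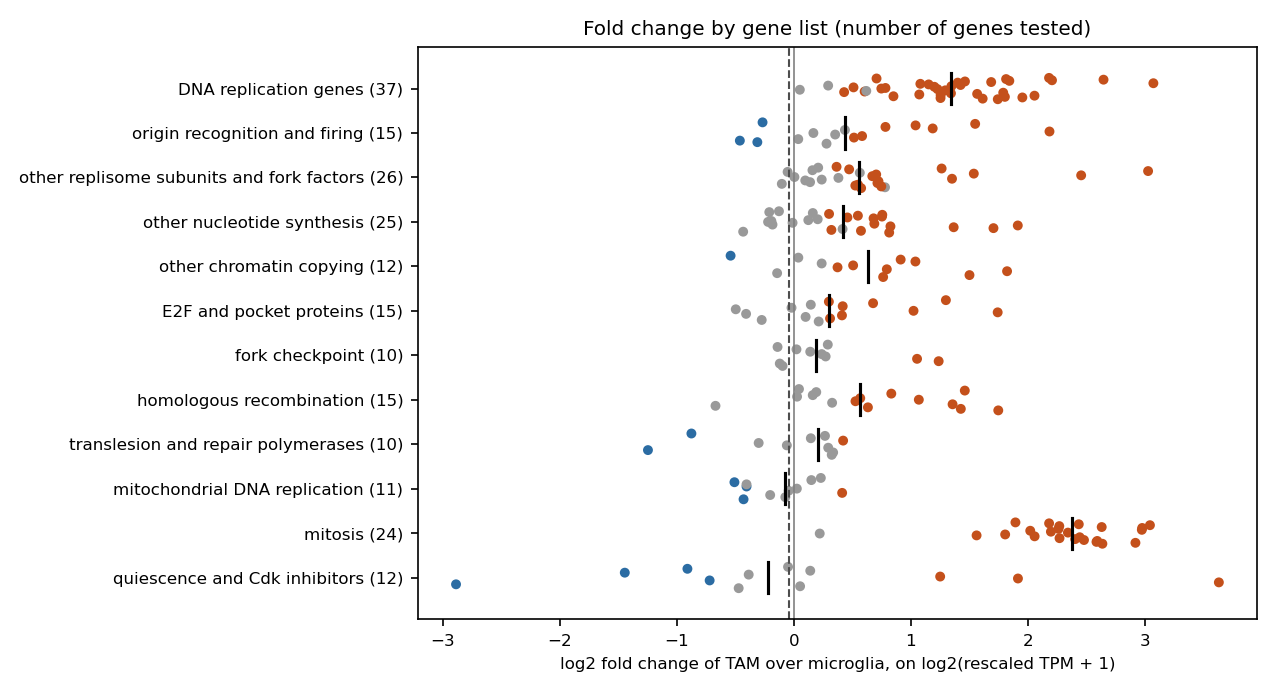
Log2 fold change of TAM over microglia on log2(rescaled TPM + 1) (x axis) of each tested gene (points) by list (y axis, with the number tested), with genes called higher in orange, called lower in blue and others in grey, a black bar at each list's median and a dashed line at the median of all genes tested. The DNA replication genes have their median at 1.34 and the mitosis genes at 2.38, while the mitochondrial list is at -0.07.

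In the authors' deposited table, with its p-values adjusted here by Benjamini-Hochberg, 35 of the 37 genes were higher and 0 lower, where 17.6% of the 27039 genes with a p-value were higher and 16% lower. The 2 genes not called there were Pold1 and Rpa2, at log2 fold changes of 0.21 and 0.46 in the authors' deposited table. Rrm2 and Mcm10 had the largest values in the authors' deposited table, 3.87 and 3.81. These values come from the same libraries and are no independent support.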

How the data were processed

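The samples were 8 bulk RNA-seq libraries, 5 of TAMs and 3 of microglia, with groups and replicate numbers from the sample titles. The deposited TPM values are the authors' own, as named by the file headers, with totals of 990422 to 997832 per library over the genes listed. The authors' deposited table also holds the mean signal of each gene and the authors' log2 fold change with its p-value, not adjusted. The submitters' processing notes name the build mm10, DESeq2 and FastQC and no version of either tool. What quantified the reads, and whether strand was used, is not given in the sources used here, and depth is unknown. A further 3 unnamed columns were not used.

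The 15262 genes that reached 1 TPM in 3 or more libraries were fitted in limma 3.58.1 (R 4.3.3, intensity trend, no covariate) on log2(TPM + 1) and on log2 of rescaled TPM, and tested on simulated data. P-values were adjusted by Benjamini-Hochberg over all genes. The 37 genes and the lists were chosen with earlier results of these data known. Named genes are the 37, per list up to 4 called genes, by lowest p, and those called against most of their list, and not every such gene is described. Copies were transcripts with at least 95% identity over at least 80% (blastn 2.17.0), and overlaps used GENCODE M21. Alternatives changed the filter, pseudocount, scaling, age, replicate block, copies and libraries. Subunit ratios and their exact permutation test (scipy 1.17.1) were added after the data were seen. Of the list names, 2 were second names of genes already listed and were left out.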

Additional observations from a re-analysis of the deposited data

Results flagged for a closer look

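Of 41 groups of 5 TAM libraries examined (the 37 genes and 4 summed lists), 3 had 1 library far from the others, and chance alone sets apart about 1 in 20 such groups. Mcm5 was at 29.6 TPM in TAM replicate 2, where the gap to the next TAM library was 0.745 of the range of the TAM libraries. Tk1 was at 64.3 TPM in the same library, with a gap of 0.734 of the range. TAM replicate 2 also held the highest value for 28 of the 37 genes. The summed granule neuron lineage and medulloblastoma markers were at 102.9 TPM in TAM replicate 5, with a gap of 0.854 of the range, and that library was the highest TAM library for 5 of the 37 genes on TPM and for 0 on rescaled TPM.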

How the results depend on the processing

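The count of DNA replication genes called higher ranged from 15 (without microglia replicate 3) to 26 (without TAM replicate 4) on TPM, and from 29 to 35 on rescaled TPM, when 1 library was left out. Genes called lower on TPM numbered 0 to 2 in these fits, the 2 being Pold1 and Rpa2 without TAM replicate 2, and 1 (Pold1) with age as a covariate. Higher genes on TPM were 20 without a filter, 16 with age as a covariate and 27 without Mir6236, Mir6240 and Gm15662, 3 abundant features. The other pathway genes called lower on TPM were 24 to 49 when 1 library was left out, 25 without the 3 features and 4 on rescaled TPM, where 63 were higher. Values whose sign turned were all near 0 or uncalled on TPM. On rescaled TPM these were Gins3 (0.43), Gins4 (0.61), Pold1 (0.052), Rfc3 (0.51) and Rpa2 (0.29), and without the 3 features Gins3 (0.069), Gins4 (0.12) and Rfc3 (0.036). With age as a covariate they were Mcm7 (-0.031), Pola1 (-0.12) and Pcna (-0.087), and with copies summed Pcna (-0.23). Leaving out 1 library gave -0.056 to 0.151 for Pola1, -0.056 to 0.125 for Pcna and -0.001 to 0.183 for Rfc2. The cause of these shifts was not tested. Same-numbered TAM and microglia libraries correlated at 0.15, 0.01 and -0.05, and differently numbered ones at -0.118 to 0.083. These few values cannot decide whether the numbers pair the samples. With a replicate block 25 genes were higher on TPM and 34 on rescaled TPM, and Gins4 stood at 0.016. Without depth or counts, counting error could not be weighed.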
